A study of Homo sapiens with 6 samples.

Results

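The subunits of the nuclear RNA polymerases were followed in HEK293T cells, a human embryonic kidney line, before and after activation of a photocaged human TET2. Members were the protein-coding genes whose symbol carries the POLR1, POLR2 or POLR3 stem followed by a subunit letter. There were 34 such genes under 33 symbols, since POLR2J3 has 2 gene identifiers, out of 60179 gene features in the table. They were sorted by textbook membership into 6 genes of RNA polymerase I alone, 2 shared by polymerases I and III, 10 of polymerase II alone, 5 shared by all 3 enzymes, 10 of polymerase III alone, and POLR2M, which binds polymerase II without being a core subunit. A further 14 features matched the symbol pattern but were pseudogenes or noncoding RNAs and were not counted as members.

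In every group the cells carried both plasmids pShP2419 and pStH1169 and had been grown for 48 h with the photocaged amino acid 4,5-dimethoxy-2-nitrobenzyl-L-serine (at 0.1 mM), which keeps the enzyme inactive until light removes the cage. The 3 groups of 2 libraries were cells taken before deprotection with no light (caged 0 h), and cells washed, placed on a 365 nm transilluminator for 3 min and kept in growth medium for another 4 h or 8 h (uncaged). No group received light or the wash without the enzyme, so light, wash, fresh medium, elapsed time and TET2 activity cannot be told apart. Transfected cells were sorted before RNA extraction and polyA RNA was sequenced. Nothing in the labels says that replicates came from separate cultures, so the p-values speak only to the spread between the libraries at hand. In bulk RNA, fewer cells expressing a gene and less RNA per cell cannot be told apart.

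RNA polymerase I makes the large ribosomal RNA precursor in the nucleolus, polymerase II makes messenger RNA, and polymerase III makes tRNAs, 5S rRNA and other short RNAs. Each enzyme has its own pair of large catalytic subunits, which form the active site, and its own stalk and accessory subunits. A set of small subunits is common to all 3 enzymes, and the alpha-like pair POLR1C and POLR1D is built into polymerases I and III. TET2 oxidises 5-methylcytosine in DNA, mainly at CG dinucleotides.

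The libraries held 17490010 to 20025955 counts each. Plasmid sequences took 11.5% to 11.8% of them in caged cells and 14.8% to 15.5% after uncaging, and were left out. Mitochondrial transcripts made up 7.65% and 8.10% of gene counts in caged cells, 6.80% and 6.98% at 4 h and 7.59% and 7.70% at 8 h. All 7 markers of the line were detected. Their summed level was 590 to 627 CPM in caged cells, 549 to 560 at 4 h and 567 to 589 at 8 h. CPM are counts divided by the TMM-scaled library size and expressed per 1e6. VIM supplied most of each sum, with 485 and 522 CPM in caged cells. Against caged cells, 1 of the 7 markers was called lower at 4 h and 1 at 8 h, and none was called higher. Of 10 markers of blood, liver, endothelium and fibroblasts, CD3E, HBG1 and CDH5 were at 0 in every library, 7 stayed under 1 CPM in every library, and the list summed to 18.7 to 21.4, 20.4 to 21.5 and 18.6 to 21.6 CPM in the 3 groups, nearly all of it COL1A1. The part of these values in the results was not tested. Of 17449 features tested, 1074 rose and 622 fell at 4 h and 2602 rose and 2306 fell at 8 h against caged cells, and 358 rose and 212 fell from 4 h to 8 h. Scaled by library totals in place of TMM, the splits were 731 to 904, 1595 to 3899 and 245 to 447, and the median of all features moved to -0.06, -0.11 and -0.06 on the log2 scale.

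Promoter sequences are shown for the largest subunit of each enzyme, since these 3 genes carried the shared change described next and since CG dinucleotides are the substrate sites of TET2. The windows are from RefSeq (GRCh38.p14), 300 bases long, from 250 before to 50 after the annotated start, 5′ to 3′ on the gene's strand, with every CG in capitals. The POLR1A window is chr2:86105837-86106136 on the minus strand with 19 CG, the POLR3A window is chr10:78029466-78029765 on the minus strand with 21, and the POLR2A window is chr17:7484116-7484415 on the plus strand with 28.
POLR1A: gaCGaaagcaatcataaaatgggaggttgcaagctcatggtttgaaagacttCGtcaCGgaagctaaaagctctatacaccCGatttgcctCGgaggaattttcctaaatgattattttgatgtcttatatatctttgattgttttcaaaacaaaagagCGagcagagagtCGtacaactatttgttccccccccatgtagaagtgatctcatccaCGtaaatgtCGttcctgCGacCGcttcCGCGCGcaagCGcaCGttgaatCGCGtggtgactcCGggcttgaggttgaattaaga
POLR3A: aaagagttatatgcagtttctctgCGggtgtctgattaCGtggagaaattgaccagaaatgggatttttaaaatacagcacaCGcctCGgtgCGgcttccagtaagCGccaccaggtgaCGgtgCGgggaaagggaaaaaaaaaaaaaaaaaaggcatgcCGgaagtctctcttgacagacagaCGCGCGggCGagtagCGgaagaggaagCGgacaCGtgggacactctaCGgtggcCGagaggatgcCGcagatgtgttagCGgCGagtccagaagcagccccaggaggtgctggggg
POLR2A: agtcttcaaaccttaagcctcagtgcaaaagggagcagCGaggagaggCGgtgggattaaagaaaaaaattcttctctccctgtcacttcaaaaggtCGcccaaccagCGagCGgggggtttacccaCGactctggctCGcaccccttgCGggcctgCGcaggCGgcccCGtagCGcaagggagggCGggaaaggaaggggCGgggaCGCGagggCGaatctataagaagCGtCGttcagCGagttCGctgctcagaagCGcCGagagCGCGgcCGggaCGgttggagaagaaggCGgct

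Windows were found for 24 of the 33 symbols, 30 windows in all; POLR1E, POLR2G, POLR2I, POLR2J, POLR2J3, POLR2K, POLR3D and POLR3G were among those with none in the table. The 30 windows held a median of 27 CG (15 to 47), against a median of 14 over all 35116 windows, and their median GC content was 61.8% against 58.7%. The motif CCGGAAG, the core recognised by ETS factors, lay on either strand in 36.67% of member windows, 11 windows of 9 genes, and in 10.26% of all windows. The palindromic NRF1 motif lay in 13.33% against 1.24%, in windows of POLR2F, POLR2H and POLR3B, and TATAAA lay in 3.33%, the single window of POLR2M, against 11.53%. The E-box CACGTG lay in 13.33% against 7.26%, in windows of POLR1G, POLR3A, POLR3C and POLR3E. Both strands were searched and windows can hold more than 1 motif: POLR3A and a POLR3C window held the E-box and the ETS core, and both overlapping POLR2F windows held the ETS core and the NRF1 motif. A match describes the letters of the window and is not a measured site. Methylation was not analysed here.

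At 4 h, 5 of the 34 genes rose and none fell; of all features tested 9.72% were called in that comparison, 6.16% higher and 3.56% lower. The 5 were the largest subunit of each enzyme, POLR1A, POLR2A and POLR3A, with the second-largest subunit of polymerase II, POLR2B, and the polymerase III accessory subunit POLR3E. The median log2 fold change was 0.11 over the members, with 25 positive and 9 negative, and -0.01 over all features. At an unadjusted edgeR p under 0.05, 12 members were higher and 2 lower at 4 h. Without the share of all features at that p, this split cannot be weighed. DESeq2 and limma-voom each called 5 higher and none lower. Over all features DESeq2 called 876 higher and 260 lower at 4 h, and limma-voom 1116 and 639. At 8 h, 10 members rose and 2 fell, while 28.1% of all features were called, 14.9% higher and 13.2% lower. The members' shares were 29.4% higher and 5.88% lower, beside 14.7% higher at 4 h. Over the 13968 protein-coding features tested, the shares were 16.4% higher and 15.6% lower at 8 h, and 6.97% and 3.88% at 4 h. The members' median at 8 h was 0.17, with 27 positive and 7 negative, against -0.005 over all features. POLR1A, POLR2A, POLR2B and POLR3A were called at both times; both comparisons share the caged libraries. From 4 h to 8 h, POLR3C rose and no member fell, against 3.27% of features called, 2.05% higher and 1.21% lower. In that step 6 members were higher and 3 lower at an unadjusted edgeR p under 0.05. DESeq2 and limma-voom each called 1 higher and none lower there. Over all features DESeq2 called 492 higher and 156 lower in that step, and limma-voom 346 and 172. The share of all features at that unadjusted p was not counted in any comparison.

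Scaled by library totals, 4 members rose and 0 fell at 4 h, and 5 rose and 4 fell at 8 h, where the all-feature splits are those given above. The members' medians were then 0.06 and 0.06, beside the -0.06 and -0.11 of all features. With offsets that remove a trend against abundance (cyclic loess), 3 rose and 0 fell at 4 h and 2 rose and 2 fell at 8 h. Over all features the same setting called 731 higher and 443 lower at 4 h, against 2112 higher and 1774 lower at 8 h.

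Caged and uncaged libraries did not overlap for 19 higher and 5 lower members at 4 h, where 56.9% of all features did not overlap (28.6% higher, 28.3% lower). At 8 h the same held for 25 higher and 6 lower members, against 66.2% of all features (32.6% and 33.6%), and from 4 h to 8 h for 10 higher and 8 lower members, against 53.3% (26.1% and 27.2%).

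**Figure D1:**
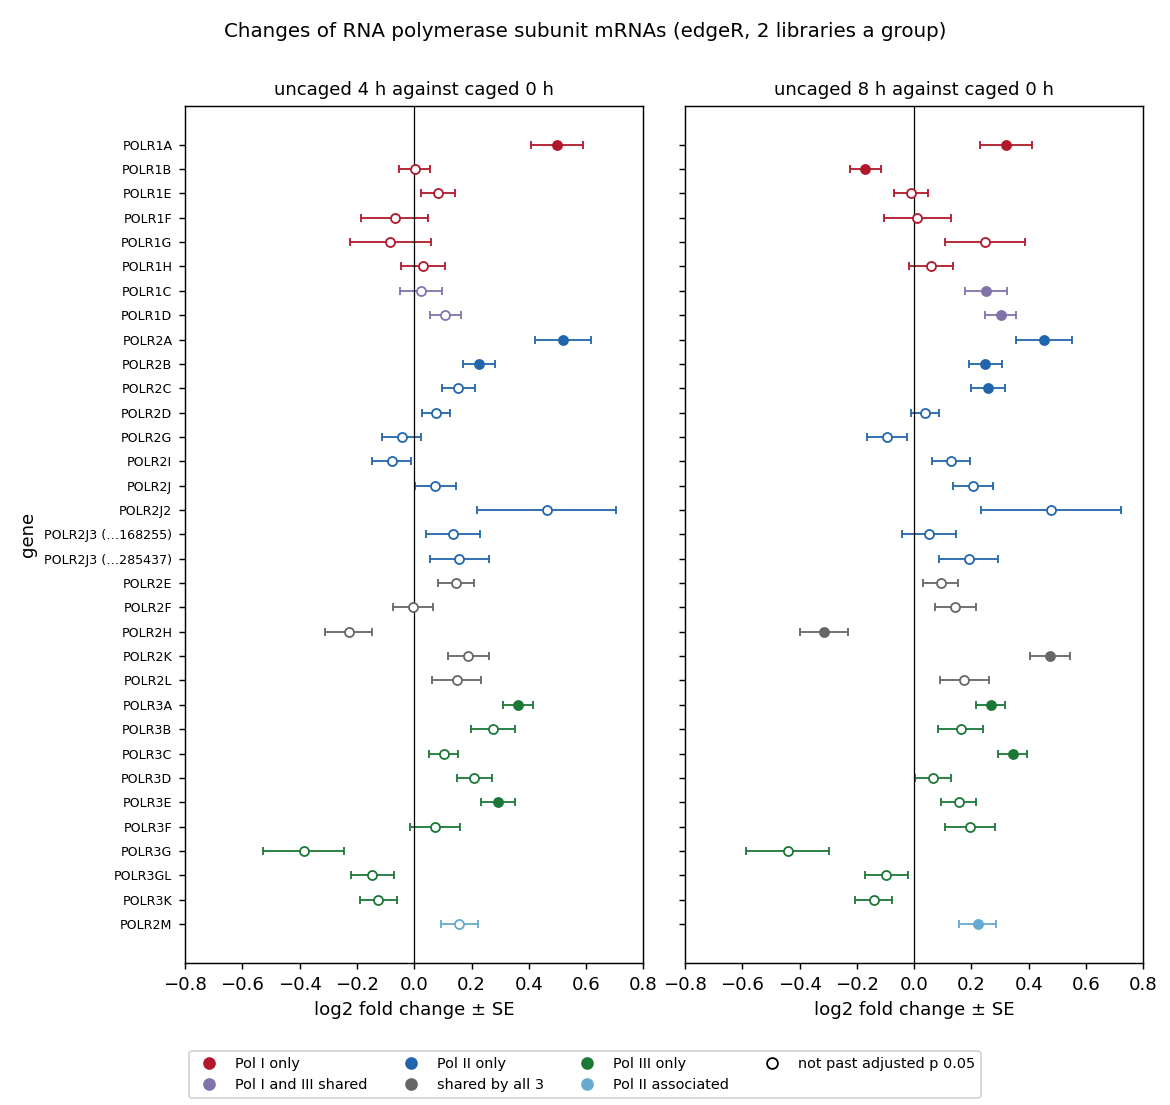
Log2 fold change of 33 of the genes against caged cells at 4 h (left) and 8 h (right), with the standard error of the edgeR fit and 2 libraries a group; filled points passed an adjusted p of 0.05 and colours give the enzyme. POLR1A, POLR2A and POLR3A lie right of 0 in both panels and passed the test in both, while POLR1B passed only at 8 h and lies left of 0 there.

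In each enzyme the largest catalytic subunit had a higher log2 fold change than the second-largest at both times; these differences between genes were not tested. In CPM per library, the ratio of the largest to the second-largest did not overlap between caged and uncaged cells for polymerase I, given below. For polymerase II it did not overlap at 4 h but did at 8 h, and for polymerase III it overlapped at both times. POLR2A over POLR2B was 1.85 and 1.37 in caged cells, 1.89 and 2.03 at 4 h and 1.88 and 1.82 at 8 h. POLR3A over POLR3B was 6.05 and 5.25 in caged cells, then 6.15 and 5.83, then 6.14 and 5.98. POLR1A (ENSG00000068654, chr2:86020216-86106155, GRCh38), the largest subunit of polymerase I, stood at 85.8 and 72.3 CPM before light, 107.5 and 116.0 after 4 h and 102.8 and 94.8 after 8 h. Every uncaged library lay above both caged libraries, and the 4 h libraries lay above the 8 h libraries. The log2 fold change was 0.50 ± 0.09 (SE, n = 2 against 2; edgeR adjusted p = 0.0142) at 4 h, a 1.41-fold level, and 0.32 ± 0.09 (adjusted p = 0.0306) at 8 h. Caged replicate 2 was the lower caged library, and without it the changes were 0.38 (adjusted p = 0.0790) and 0.20 (0.161). The 4 h call was also lost without 4 h replicate 1 (0.0517) or replicate 2 (0.118), and the 8 h call without 4 h replicate 2 (0.0513) or either 8 h library (0.151 and 0.0538), with no low-count filter (0.0900), under library totals (0.105) and under cyclic loess (0.0982).

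POLR1B, its second-largest partner in the active site, was called only at 8 h and in the other direction. It stood at 124.0 and 122.0 CPM in caged cells, 122.96 and 123.23 after 4 h and 108.3 and 110.4 after 8 h. The 8 h libraries lay below the other 4 libraries and the 4 h libraries between or beside the caged ones. The log2 fold change was 0.001 ± 0.05 at 4 h and -0.17 ± 0.05 (edgeR adjusted p = 0.0453) at 8 h, and the 8 h call was lost whichever library was left out, with changes of -0.16 to -0.19 and adjusted p of 0.0757 to 0.158, and with DESeq2 (0.0772), RLE size factors (0.0524), the 4 libraries compared alone (0.0732) and the replicate block (0.0650). The ratio of POLR1A to POLR1B in CPM was 0.692 and 0.593 in caged cells, 0.874 and 0.941 after 4 h and 0.950 and 0.859 after 8 h, so that no uncaged library overlapped the caged ones; the lower caged ratio belonged to replicate 2.

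POLR2A (ENSG00000181222, chr17:7484366-7514616) encodes the largest subunit of polymerase II, whose C-terminal repeat tail is phosphorylated during transcription. Its level was 338.6 and 267.5 CPM in caged cells, 415.6 and 453.3 after 4 h and 409.2 and 421.2 after 8 h. Both uncaged groups lay above the caged libraries and overlapped each other. The changes were 0.52 ± 0.10 (edgeR adjusted p = 0.0171), or 1.43-fold, and 0.45 ± 0.10 (0.0116). As for POLR1A, caged replicate 2 was the lower one: without it the 4 h change was 0.36 (adjusted p = 0.0502). The 4 h call was also lost without 4 h replicate 1 (0.0538) or 2 (0.129), with no low-count filter (0.0519) and under cyclic loess (0.37, adjusted p = 0.0629). The 8 h call was lost without 8 h replicate 2 (0.0518) and under cyclic loess (0.22, adjusted p = 0.148).

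POLR2B, the second-largest subunit of polymerase II, also rose at both times. It stood at 183.4 and 195.4 CPM in caged cells, 219.9 and 223.2 after 4 h and 218.2 and 231.9 after 8 h. All uncaged libraries were higher than both caged ones. The changes were 0.23 ± 0.06 (edgeR adjusted p = 0.0424) and 0.25 ± 0.06 (0.0141). The 4 h call was lost with any library left out (adjusted p of 0.0504 to 0.223), and the 8 h call without caged replicate 1 (0.0895) or 8 h replicate 2 (0.0841). Cyclic loess reduced the changes to 0.11 (adjusted p = 0.251) and 0.08 (0.346). Library totals (0.0819 at 4 h, 0.0794 at 8 h), no low-count filter (0.152, 0.0539) and, at 4 h, the replicate block (0.0506) also ended these calls.

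POLR3A (ENSG00000148606, chr10:77969251-78029545) is the largest subunit of polymerase III. It stood at 208.4 and 196.1 CPM in caged cells, 256.9 and 263.4 after 4 h and 245.1 and 241.7 after 8 h. The 3 groups did not overlap, with the 4 h libraries highest. The changes were 0.36 ± 0.05 (edgeR adjusted p = 0.00628), or 1.29-fold, and 0.27 ± 0.05 (0.00752). The 4 h call was lost only without 4 h replicate 2 (adjusted p = 0.0705) among 19 alternatives, and the 8 h call only under cyclic loess (0.08, adjusted p = 0.309). Its step between 4 h and 8 h, -0.10, missed the threshold. POLR3B, its second-largest partner, was at 34.4 and 37.4, then 41.8 and 45.2, then 39.9 and 40.5 CPM. Its groups did not overlap either, with changes of 0.28 ± 0.08 (adjusted p = 0.0572) and 0.16 ± 0.08 (0.149). The 4 h change of POLR3B passed the test with a robust fit (0.0447) and with length and GC offsets (0.0206).

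**Figure D2:**
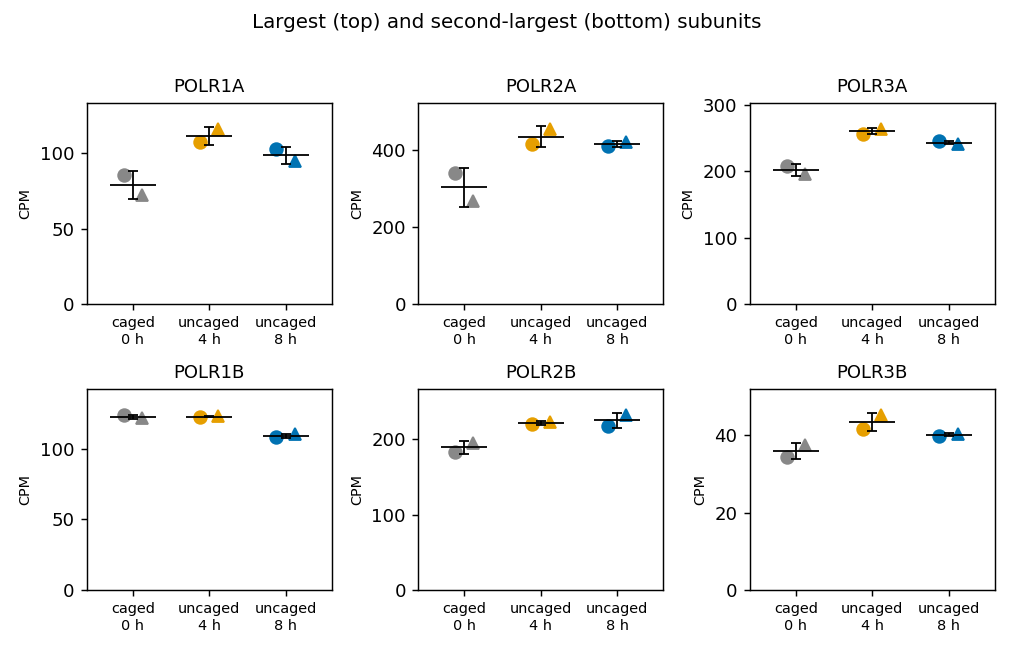
Normalised counts (CPM) by library for the largest (top) and second-largest (bottom) subunits of polymerases I, II and III; circles are replicate 1, triangles replicate 2, lines the mean and bars the SD of 2 libraries, and each axis starts at 0. The uncaged libraries of POLR1A, POLR2A, POLR2B, POLR3A and POLR3B all sit above the caged ones, while the 8 h libraries of POLR1B, at 108.3 and 110.4, sit below them.

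The remaining 4 genes specific to polymerase I did not pass the test at either time. POLR1E and POLR1G form the TFIIF-like pair of the enzyme, POLR1F belongs to the stalk, and POLR1H is involved in cleavage of the transcript. Their log2 fold changes lay between -0.08 and 0.08 at 4 h and between -0.01 and 0.25 at 8 h. POLR1G, at 15.1 and 14.0, then 15.6 and 11.9, then 18.3 and 16.3 CPM, was the highest of them at 8 h (0.25 ± 0.14, edgeR adjusted p = 0.214). The median over the 6 genes of polymerase I alone was 0.02 at 4 h and 0.03 at 8 h with TMM, and turned negative with library totals (-0.03 and -0.07) and, at 4 h, with no low-count filter (-0.02) and without 4 h replicate 1 (-0.0003).

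POLR1C and POLR1D, the alpha-like pair around which polymerases I and III are assembled, rose at 8 h. POLR1D was at 150.5 and 159.5 CPM in caged cells, 168.3 and 166.0 after 4 h and 188.2 and 194.2 after 8 h. Its groups did not overlap, and each later group lay higher. The changes were 0.11 ± 0.05 (edgeR adjusted p = 0.244) at 4 h and 0.30 ± 0.05 (0.00550) at 8 h, and the 8 h call was lost only under cyclic loess (0.15, adjusted p = 0.0696). POLR1C was at 60.001 and 53.3, then 58.0 and 57.3, then 67.004 and 68.0 CPM. The 8 h libraries lay above the other 4, while the 4 h libraries lay within the caged range. The 8 h change of POLR1C was 0.25 ± 0.07 (edgeR adjusted p = 0.0338). It missed the threshold without caged replicate 2 (0.17, adjusted p = 0.187), either 4 h library (0.0594 and 0.0645) or either 8 h library (0.100 and 0.128), with DESeq2 (0.0822), library totals (0.159), no low-count filter (0.106), the 4 libraries compared alone (0.0527) and cyclic loess (0.0517).

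The corresponding pair of polymerase II is POLR2C and POLR2J. POLR2C was at 102.8 and 106.5, then 113.6 and 119.3, then 127.4 and 122.8 CPM. Its 3 groups did not overlap and the 8 h libraries were highest. It rose at 8 h (0.26 ± 0.06, edgeR adjusted p = 0.0140) but not past the threshold at 4 h (0.15 ± 0.06, 0.136), and the 8 h call was lost without caged replicate 1 (0.0840), without 8 h replicate 1 (0.0749), with library totals (0.0815) and under cyclic loess (0.0982). POLR2J, at 49.7 and 52.0, then 51.0 and 56.0, then 59.1 and 58.2 CPM, gave 0.07 ± 0.07 and 0.21 ± 0.07 (adjusted p = 0.560 and 0.0612). The stalk subunits POLR2D and POLR2G and the subunit POLR2I, which acts in start site choice and fidelity, gave changes of -0.09 to 0.13 over both times and passed no test.

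POLR2J and its duplicated relatives on chromosome 7 cannot be separated cleanly by short reads. The coding sequences of POLR2J, POLR2J2 and both POLR2J3 genes began with the same 60 bases, shown here because they make the counts of these 4 rows depend on how reads were assigned (GENCODE release 29, GRCh38).
POLR2J, POLR2J2 and POLR2J3: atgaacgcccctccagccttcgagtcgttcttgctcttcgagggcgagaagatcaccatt
Of the distinct 31-base words in the annotated transcripts, 98.5% in POLR2J2, 85.1% and 56.1% in the POLR2J3 genes and 43.1% in POLR2J also occurred in other genes. The values of these rows are therefore uncertain. POLR2J2 was at 4.26 and 2.83, then 4.14 and 5.63, then 4.98 and 4.90 CPM, and the 2 POLR2J3 genes lay between 61.4 and 112 CPM. None of these relatives passed the test, although ENSG00000285437 did at 8 h without caged replicate 1 (0.37, edgeR adjusted p = 0.0293). The noncoding relative POLR2J4 was at 11.4 to 16.0 CPM and passed no test. POLR2I shared 70.8% of its words with other genes, mostly the overlapping AD001527.2, and POLR1G shared 51.8%, mostly with its overlapping neighbour ERCC1. The pseudogene row POLR1HASP, which overlaps POLR1H on the other strand, was at 11.5 and 8.98, then 8.94 and 9.14, then 7.33 and 6.72 CPM and fell at 8 h (-0.55 ± 0.15, adjusted p = 0.0306). The sources used here do not give the strand setting of the authors' counting, so these overlapping genes cannot be told apart with certainty. The other 12 noncoding matches stayed at or under 0.21 CPM.

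Of the 5 subunits common to all 3 enzymes, 1 rose and 1 fell at 8 h. POLR2K (ENSG00000147669), the small zinc-binding subunit also known as RPB12, was at 49.0 and 50.01 CPM in caged cells, 55.1 and 57.6 after 4 h and 65.6 and 71.9 after 8 h. The 3 groups did not overlap and each later group lay higher. The change was 0.19 ± 0.07 (edgeR adjusted p = 0.137) at 4 h and 0.47 ± 0.07 (0.00284), or 1.39-fold, at 8 h. The 8 h call of POLR2K held in all 19 alternatives, between 0.37 and 0.54 on the log2 scale. Between 4 h and 8 h its change was 0.29 and missed the threshold, except with a robust fit (0.0433), and the 4 h change passed it with length and GC offsets (0.0133). POLR2H, also known as RPB8, went the other way. It was at 52.2 and 48.6, then 44.4 and 41.5, then 42.9 and 38.1 CPM. Every uncaged library lay below both caged ones. Its change was -0.23 ± 0.08 (adjusted p = 0.118) at 4 h and -0.31 ± 0.08 (0.0239) at 8 h. The 8 h call of POLR2H was lost without caged replicate 1 (-0.26, adjusted p = 0.131), without 8 h replicate 2 (-0.24, 0.129) and with DESeq2 (0.0548). POLR2E, POLR2F and POLR2L, the other common subunits, gave changes of -0.004 to 0.15 at 4 h and 0.09 to 0.17 at 8 h and passed no test.

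Among the subunits of polymerase III alone, POLR3C was called at 8 h and not at 4 h. POLR3C (ENSG00000186141, chr1:145824088-145842505) belongs to the trimer with POLR3F and POLR3G or POLR3GL that recruits the enzyme to its promoters. It was at 168.4 and 176.0 CPM in caged cells, 183.9 and 186.0 after 4 h and 219.3 and 217.9 after 8 h. The 3 groups did not overlap. The changes were 0.10 ± 0.05 (edgeR adjusted p = 0.236) at 4 h and 0.34 ± 0.05 (0.00263), or 1.27-fold, at 8 h, and the 8 h call held in all 19 alternatives, between 0.18 and 0.37. Between 4 h and 8 h it rose by 0.24 ± 0.05 (adjusted p = 0.0450). That step missed the threshold whichever library was left out (0.0624 to 0.202), under library totals (0.0715), with no low-count filter (0.102), with the 4 libraries alone (0.0514), with the replicate block (0.0715) and under cyclic loess (0.0837). POLR3F, at 37.3 to 46.2 CPM over the 6 libraries, passed no test.

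POLR3G and POLR3GL are alternative forms of the third subunit of that trimer; POLR3G is known for high levels in embryonic stem cells and tumour cells. POLR3G was at 16.4 and 17.9 CPM in caged cells, 14.5 and 11.7 after 4 h and 11.3 and 13.9 after 8 h. Every uncaged library lay below the caged ones and the uncaged groups overlapped. Its changes were -0.39 ± 0.14 (edgeR adjusted p = 0.126) and -0.44 ± 0.14 (0.0502). At 8 h POLR3G missed the threshold narrowly and passed it in 8 of the other 13 alternatives (0.0198 to 0.0499), limma-voom among them, and without either 4 h library (0.0452 and 0.0435) or 8 h replicate 2 (0.0426). POLR3GL was at 31.3 and 30.9, then 29.1 and 27.0, then 29.3 and 28.8 CPM. Its changes were -0.15 ± 0.07 and -0.10 ± 0.07 (edgeR adjusted p = 0.253 and 0.360). The ratio of POLR3G to POLR3GL in CPM was 0.524 and 0.578 in caged cells, 0.499 and 0.431 after 4 h and 0.385 and 0.483 after 8 h. The ratio was lower in all 4 uncaged libraries than in both caged ones; it was not tested.

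POLR3D and POLR3E form the TFIIF-like pair of polymerase III. POLR3E was at 65.4 and 68.3, then 82.5 and 81.4, then 74.4 and 74.5 CPM. The groups did not overlap and the 4 h libraries were highest. It rose at 4 h (0.29 ± 0.06, edgeR adjusted p = 0.0220), and the 8 h change of 0.16 ± 0.06 had an adjusted p of 0.0869. The 4 h call was lost without any one of the caged or 4 h libraries (0.0802 to 0.128) and with no low-count filter (0.0697), and length and GC offsets brought the 8 h change past the threshold (0.0155). POLR3D was at 56.8 and 57.7, then 67.6 and 64.9, then 59.7 and 60.2 CPM, the same order of groups, with 0.21 ± 0.06 (0.0691) and 0.07 ± 0.06 (0.452). POLR3K, a subunit involved in transcript cleavage and termination, was lower in all uncaged libraries (-0.12 and -0.14, adjusted p = 0.259 and 0.138) and passed the test at 8 h under library totals (0.0238) and with length and GC offsets (0.0164). CRCP, a stalk subunit of polymerase III, falls outside the symbol rule. It was at 71.4 and 61.9, then 80.02 and 80.8, then 86.4 and 85.3 CPM and rose at 8 h (0.37 ± 0.08, adjusted p = 0.0102; 0.26 and 0.0547 without caged replicate 2).

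**Figure D3:**
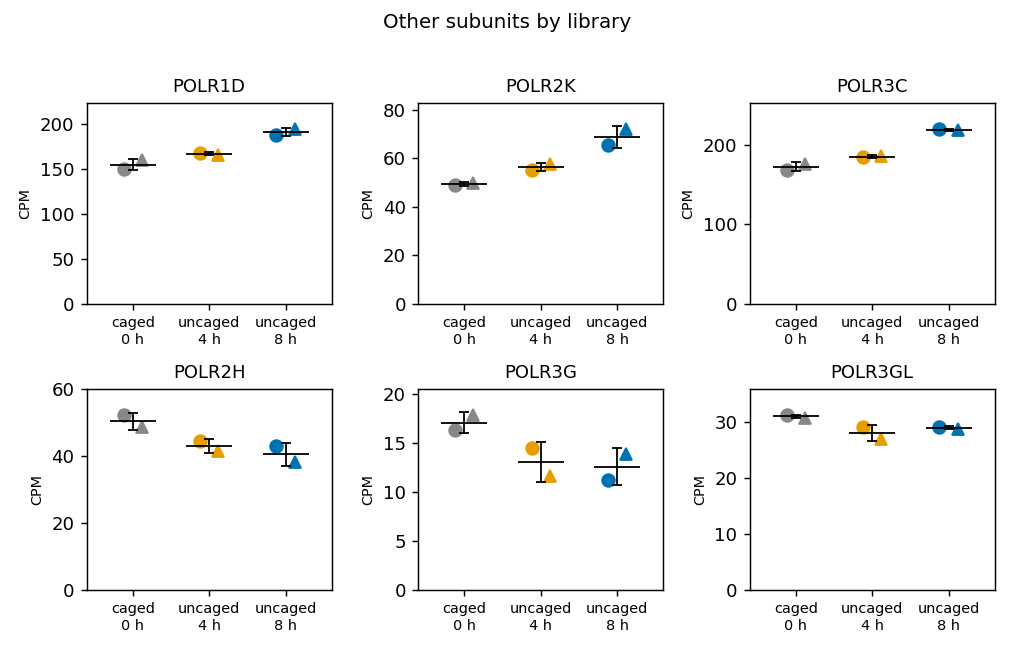
Normalised counts (CPM) by library for POLR1D, POLR2K and POLR3C (top) and POLR2H, POLR3G and POLR3GL (bottom); circles are replicate 1, triangles replicate 2, lines the mean and bars the SD of 2 libraries, and each axis starts at 0. The 8 h libraries of POLR1D, POLR2K and POLR3C lie above all others, and the uncaged libraries of the bottom 3 genes lie below the caged ones.

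POLR2M, also known as Gdown1, associates with polymerase II and competes with TFIIF. It was at 55.4 and 59.5, then 64.6 and 63.5, then 66.9 and 67.05 CPM. The 3 groups did not overlap. It rose at 8 h (0.22 ± 0.07, edgeR adjusted p = 0.0351), a call that was lost with any library left out (0.0576 to 0.192), with DESeq2 (0.109), library totals (0.198), no low-count filter (0.121), the 4 libraries alone (0.0569), the replicate block (0.0519) and cyclic loess (0.0568), and its 4 h change passed with length and GC offsets (0.0236). It shared 21.0% of its 31-base words with other genes, mostly with the overlapping GCOM1.

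By enzyme, counts of calls were small and no class was tested as a group. Among the 10 genes of polymerase II alone, POLR2J, POLR2J2 and both POLR2J3 genes have uncertain values because of their shared sequence. The 4 h log2 fold change was 0.07 for POLR2J, 0.46 for POLR2J2, and 0.14 and 0.16 for the POLR2J3 genes. These uncertain rows enter every median of that class, and none was computed without them. At 4 h, 1 of 6 genes of polymerase I alone rose, 2 of 10 of polymerase II and 2 of 10 of polymerase III, with median log2 fold changes of 0.02, 0.15 and 0.16 beside -0.01 over all features, of which 6.16% rose and 3.56% fell. No gene was called among the 5 common subunits (median 0.15) or the pair shared by polymerases I and III (0.07). At 4 h an unadjusted edgeR p under 0.05 was reached by 2 common subunits in the rising and 1 in the falling direction. Neither gene of that pair reached it, and DESeq2 and limma-voom called none of these 7 genes. The share of all features at that unadjusted p was not counted. At 8 h the medians were 0.03, 0.20 and 0.16 for polymerases I, II and III alone, 0.14 for the common subunits and 0.28 for the pair. The calls at 8 h were 1 higher and 1 lower of 6, 3 higher of 10, 2 higher of 10, 1 higher and 1 lower of 5, and both genes of the pair, beside 14.9% higher and 13.2% lower over all features.

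Members with longer exons tended to have higher log2 fold changes at 4 h. The Spearman correlation of log2 fold change with exon length across the 34 genes was 0.47 at 4 h, 0.23 at 8 h and -0.37 from 4 h to 8 h, while over the 17255 tested features with a length it was 0.005, -0.13 and -0.19. With GC content the members' values were 0.10, 0.03 and -0.15. These are descriptions across genes, which share the libraries and are not independent. All 5 genes called at 4 h were among the 17 with at least 4 kb of exons, a boundary chosen after the values were seen; those 17 genes had a median change of 0.16 at 4 h, and the 17 shorter ones 0.07. With offsets for length and GC content fitted in each library, 8 members rose at 4 h and 12 rose and 4 fell at 8 h. The calls over all features also grew, to 1712 higher at 4 h from 1074. At 8 h they were 3280 higher and 2520 lower, from 2602 and 2306. The part of length in the results was not tested.

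Levels of different genes were compared per kilobase of exon (union of GENCODE 29 exons) in caged cells. POLR3C was highest at 61.6 ± 1.92 CPM per kilobase (SD, n = 2), followed by POLR2L at 56.4 and POLR2I at 48.4. The lowest were POLR2J2 at 1.72, POLR1G at 3.98, POLR3G at 4.26 and POLR1A at 5.85. The class medians were 30.5 for polymerase II alone, 26.6 for the common subunits, 12.9 for polymerase I alone, 12.02 for the pair and 11.5 for polymerase III alone, with wide ranges: 1.72 to 48.4 for polymerase II and 4.26 to 61.6 for polymerase III. Per kilobase of the longest transcript the medians were 41.6, 45.8, 15.3, 28.5 and 14.7, so the order of the common subunits and polymerase II changed and the pair moved up. The transcripts actually used by the cells were not analysed here, so these levels depend on the annotation.

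**Figure D4:**
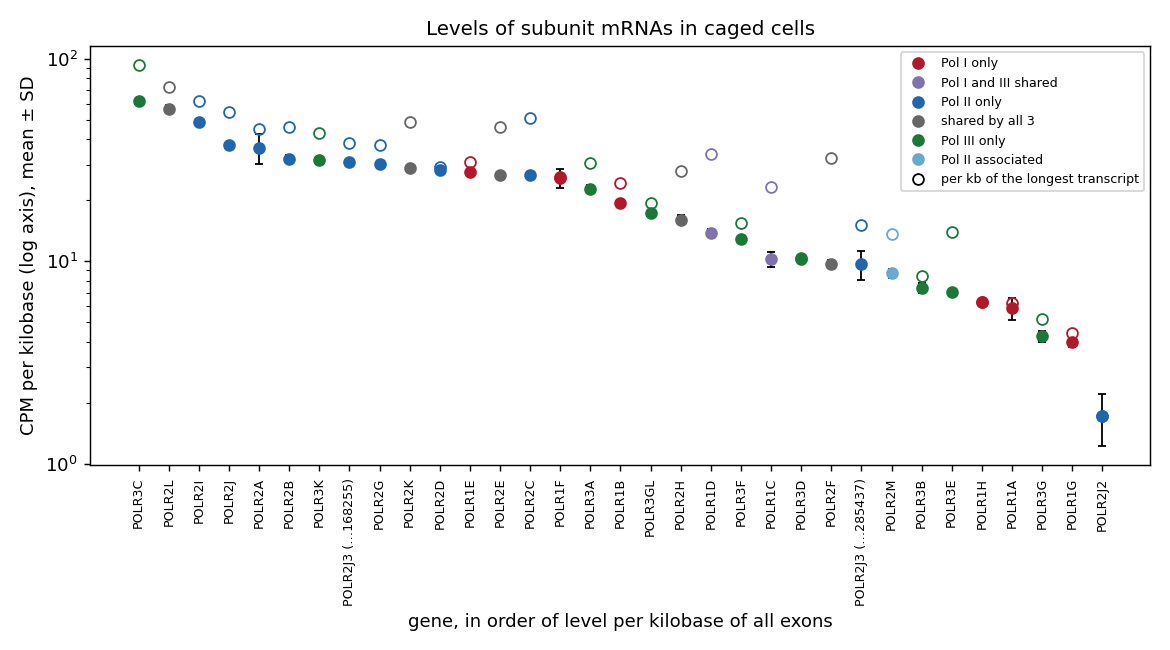
Level of 33 of the genes in caged cells, in CPM per kilobase on a log axis, in order of level; filled points use the union of exons with the SD of 2 libraries, open points the longest transcript, and colours give the enzyme. POLR3C is highest at 61.6 and POLR2J2 lowest at 1.72 CPM per kilobase of exon. Genes of polymerase II alone span 1.72 to 48.4 and those of polymerase III alone 4.26 to 61.6.

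Against caged cells, with TMM scaling, more genes were called higher than lower in each list of nuclear factors. The mitochondrial list went both ways, with 4 higher and 4 lower at 8 h. Of all features, 6.16% were called higher and 3.56% lower at 4 h, against 14.9% higher and 13.2% lower at 8 h. Of 9 polymerase I factors, 1 rose at 4 h and 4 at 8 h, or 11.1% and 44.4%, with medians of 0.12 and 0.26. RRN3, the factor that joins polymerase I to its promoter complex, rose at both times (0.25 ± 0.06, edgeR adjusted p = 0.0390, and 0.37 ± 0.06, 0.00395); UBTF, the factor that covers ribosomal DNA, rose at 8 h (0.33 ± 0.09, 0.0311) and was at 0.12 ± 0.09 (0.447) at 4 h. TTF1, the polymerase I terminator protein, was at 32.1 and 34.4 CPM in caged cells, 30.5 and 36.4 after 4 h and 54.0 and 55.4 after 8 h. Both 8 h libraries of TTF1 lay above the rest, which overlapped. It rose against caged cells (0.72 ± 0.09, adjusted p = 0.00156) and from 4 h to 8 h (0.71 ± 0.09, 0.0181).

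Of 24 general factors of polymerase II, 6 rose at 4 h, and 9 rose and 1 fell at 8 h (25.0% higher, then 37.5% higher and 4.17% lower; medians 0.09 and 0.18). The elongation factors SUPT6H, SUPT5H and SUPT4H1 rose at both times: SUPT4H1 by 0.37 ± 0.08 (edgeR adjusted p = 0.0233) and 0.64 ± 0.08 (0.00122), SUPT6H by 0.33 ± 0.05 (0.00873) and 0.40 ± 0.05 (0.00167) and SUPT5H by 0.27 ± 0.05 (0.0212) and 0.25 ± 0.05 (0.0113). The initiation factors GTF2B, GTF2F1 and ERCC3 rose at both times as well, by 0.38, 0.21 and 0.23 at 4 h and by 0.42, 0.31 and 0.31 after 8 h. GTF2B lost its call at 4 h without any one of the caged or 4 h libraries (edgeR adjusted p of 0.0899 to 0.125) and with no low-count filter (0.0697). The 4 h calls of GTF2F1 and ERCC3 were lost whichever library was left out (edgeR adjusted p of 0.0506 to 0.225 and 0.0550 to 0.198), with the replicate block (0.0523 and 0.0610), library totals (0.0737 and 0.0756), no low-count filter (0.121 and 0.113) and cyclic loess, which took GTF2F1 to 0.09 (0.286) and ERCC3 to 0.17 (0.109). The SUPT5H change at 8 h was 0.07 (0.434) under cyclic loess and 0.15 (0.0737) under library totals, and it missed the threshold without caged replicate 2 (0.0668) or 8 h replicate 2 (0.0530). At 4 h its call was lost under cyclic loess (0.15, 0.157), with no low-count filter (0.0725) and without caged replicate 2 (0.117) or either 4 h library (0.0800 and 0.157). TBP, the TATA-binding protein used by all 3 enzymes and counted in 3 lists, rose at 8 h (0.25 ± 0.07, 0.0281) and gave 0.23 ± 0.07 (0.0708) at 4 h.

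Of 18 polymerase III factors, 4 rose and 1 fell at 4 h and 6 rose at 8 h (22.2% higher and 5.56% lower, then 33.3% higher; medians 0.07 and 0.13). The TFIIIC subunits GTF3C4 and GTF3C5, which bind internal promoters, rose at both times (0.37 and 0.43, and 0.24 and 0.24), as did SNAPC4 of the snRNA promoter complex (0.36 and 0.27), while GTF3C6 rose at 8 h (0.32). MAF1, the repressor of polymerase III, was at 118.1 and 126.9, then 122.7 and 132.1, then 142.3 and 145.4 CPM and rose at 8 h (0.23 ± 0.06, edgeR adjusted p = 0.0273). SSB, the La protein that binds the 3′ ends of polymerase III transcripts, was at 51.0 and 49.95 CPM in caged cells, 32.7 and 32.9 after 4 h and 54.6 and 67.6 after 8 h. The 4 h libraries of SSB lay below all others. It fell by 0.62 ± 0.10 on the log2 scale at 4 h (adjusted p = 0.0103) and rose from 4 h to 8 h by 0.90 ± 0.10 (0.0151). Of 14 RNAs made by polymerase III, 5 could be tested after polyA selection, with medians of -0.18 and 0.43. None was called against caged cells at either time. At 4 h an unadjusted edgeR p under 0.05 was reached by 2 higher and 2 lower, DESeq2 called 1 higher and limma-voom none. At 8 h no tool called any and none had an unadjusted p under 0.05. The share of all features at that unadjusted p was not counted. BCYRN1, a short neuronal RNA, was at 131 and 132, then 113 and 119, then 138 and 151 CPM and rose from 4 h to 8 h (0.32 ± 0.06, 0.0425).

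Of 25 assembly and import factors, 2 rose and 1 fell at 4 h and 4 rose at 8 h (8.0% higher and 4.0% lower, then 16.0% higher; medians 0.03 and 0.11). RPRD1B, which binds the polymerase II tail, rose at both times (0.38 and 0.50), and ARMC6 rose at 4 h (0.26). RPAP2, a phosphatase of that tail that also takes part in import, fell at 4 h (-0.41 ± 0.07, edgeR adjusted p = 0.0140) and was at -0.19 (0.0932) at 8 h. PDRG1, TTI1 and GPN1, of the chaperone and GTPase assembly system, rose at 8 h by 0.25, 0.26 and 0.23. The 10 genes of mitochondrial transcription, which do not serve the nuclear enzymes, went both ways: 2 rose and 1 fell at 4 h and 4 rose and 4 fell at 8 h (40.0% in each direction at 8 h; medians 0.10 and 0.05). POLRMT, the mitochondrial RNA polymerase, fell at 8 h (-0.20 ± 0.06, adjusted p = 0.0361). TWNK, the mitochondrial helicase, rose at both times (0.62 and 0.69), TFAM rose at 8 h (0.42), MTERF4 rose at both (0.27 and 0.38), and TFB1M, an rRNA methyltransferase, fell at both (-0.35 and -0.53). MYC, a transcription factor whose known targets include genes of all 3 machineries, was at 29.05 and 26.7 CPM in caged cells, 63.8 and 55.0 after 4 h and 45.0 and 42.6 after 8 h. The 3 groups of MYC did not overlap. It rose by 1.09 ± 0.09 (adjusted p = 0.00109) and 0.65 ± 0.09 (0.00243), and fell from 4 h to 8 h (-0.44 ± 0.09, 0.0417).

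Of 48 calls of the named partner genes, CRCP and MYC included, 16 held whichever library was left out. At 4 h, 2 of 18 did, MYC and TWNK. At 8 h, 14 of 26 did: ERCC3, GTF2B, GTF2F1, GTF3C4, MTERF4, MYC, RPRD1B, RRN3, SUPT4H1, SUPT6H, TFAM, TFB1M, TTF1 and TWNK. From 4 h to 8 h, none of the 4 did. In all 19 alternatives, 15 of the 48 held, the same 16 without GTF2F1 at 8 h (0.13, edgeR adjusted p = 0.0962 under cyclic loess). With library totals in place of TMM the list medians at 4 h and 8 h were 0.07 and 0.16 for polymerase I factors, 0.04 and 0.08 for polymerase II factors, 0.02 and 0.03 for polymerase III factors and 0.05 and -0.05 for mitochondrial transcription. The assembly factors then had medians of -0.02 and 0.003, so their 4 h median changed sign, as did the mitochondrial one at 8 h. For the calls from 4 h to 8 h with a library left out, the highest edgeR adjusted p was 0.192 for MYC, 0.134 for TTF1, 0.129 for SSB and 0.207 for BCYRN1.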

How the data were processed

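Gene-level RNA-seq from 6 libraries of HEK293T cells was used. Per the submitters' processing notes, the authors used Salmon 1.1.0, DESeq2 and R 3.6.1 with GRCh38; the deposited values are expected counts (Salmon's estimated counts per gene), not normalised. The sources used here give neither the annotation release nor the strand setting. Members, classes and partner lists were chosen with earlier results of these data known.

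Genes were matched to symbols by identifier, and type, position and exon length came from GENCODE 29. The 5 plasmid sequences were removed and counts rounded to whole numbers. R 4.3.3 and edgeR 4.0.16 were used: filterByExpr (minimum count 10, total 15) left 17449 features, all 34 members among them, followed by TMM scaling and the quasi-likelihood test over all 6 libraries, with Benjamini-Hochberg adjustment over all features and a threshold of 0.05. The common biological coefficient of variation was 6.34%. The procedure was tested on simulated data. Alternatives used RLE factors or library totals, DESeq2 1.42.0, limma-voom 3.58.1, other filters, the replicate number as a block, the 4 libraries compared alone, unrounded counts, a robust fit, cyclic loess offsets, length and GC offsets, plasmid sequences kept, each library left out in turn, and longest-transcript lengths. Every member is described except 1, which is not reported here but stays in the counts and medians; of each partner list at most the 4 called genes of smallest p in each comparison are named, plus TBP, MAF1, POLRMT, UBTF, RRN3 and MYC.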

Additional observations from a re-analysis of the deposited data

Results flagged for a closer look

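For 5 genes the change at 8 h differed from the change at 4 h by a direct test of the uncaged 8 h against the uncaged 4 h libraries (edgeR, adjusted p under 0.05). The difference was 0.241 on the log2 scale for POLR3C, which was higher in both 8 h libraries than in both 4 h libraries. It was 0.709 for TTF1, whose 8 h libraries stood above the other 4, and 0.8974 for SSB, which was lowest at 4 h. It was 0.3169 for BCYRN1, also lowest at 4 h, and -0.4396 for MYC, which was highest at 4 h. In all 5 genes the 4 h and 8 h libraries did not overlap, a property of 53.3% of all features. The calls of POLR3C, MYC and BCYRN1 were lost whichever library was left out. Those of TTF1 and SSB were lost in some of these fits. With length and GC offsets the BCYRN1 difference was 0.11 (adjusted p = 0.328).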

How the results depend on the processing

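Of the 18 calls of subunit genes, 2 held in all 19 alternatives (POLR2K and POLR3C at 8 h), 4 held whichever library was left out (those and POLR1D and POLR3A at 8 h), and none changed sign. With 1 library left out, the lone library of its group is assumed to vary like the others. The count of subunit genes called higher at 4 h, 5 in the report, ranged over those fits from 0 (without 4 h replicate 2) to 4; it was 1 without caged replicate 2 or 4 h replicate 1, and 3 without caged replicate 1. Over all features the count higher at 4 h, 1074 in the report, was 165, 279, 350 and 420 in those 4 fits, in that order. The counts higher at 8 h (10 in the report) and from 4 h to 8 h (1 in the report) were smaller in every fit with a library left out. The all-feature counts were smaller in each of these fits as well. The count lower at 8 h, 2 in the report, was the same or smaller, and smaller in each over all features.

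With no low-count filter the members' counts higher were 2 at 4 h, 6 at 8 h and 0 from 4 h to 8 h. Over all features that setting called 447, 1597 and 48 higher, against 1074, 2602 and 358 in the report. With cyclic loess offsets the members' counts higher were 3, 2 and 0, beside 731, 2112 and 325 over all features. With length and GC offsets the members' counts higher were 8, 12 and 2, and 4 members were lower at 8 h. Over all features that setting called 1712, 3280 and 705 higher, and 2520 lower at 8 h. With library totals 5 members were higher and 4 lower at 8 h, and 0 higher from 4 h to 8 h. The all-feature counts were then 1595, 3899 and 245, in that order. At 8 h RLE size factors gave 1 lower member and DESeq2 gave 0. Over all features they gave 2249 and 1110 lower, against 2306 in the report. From 4 h to 8 h the 4 libraries compared alone gave 0 members higher and the robust fit 2. Over all features they gave 318 and 631 higher. With the replicate block the members' counts higher were 4, 9 and 0, with 1 lower at 8 h. The all-feature counts were then 709, 2376 and 151 higher, and 2031 lower at 8 h. Between groups, deviations of same-numbered libraries from their group means correlated at 0.001, 0.047 and -0.05. These values show no clear shared replicate effect, but they cannot tell whether samples were paired by culture or day. The cause of these differences was not tested. With 2 libraries a group, the spread limits which small changes can be called.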
